A study of Yarrowia lipolytica with 9 samples.

Results

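Of the 6127 protein-type locus tags (YALI0 identifiers ending in g) in the table of 6170 rows, 126 (2.06%) were genes peaking at pH 4.0. *Yarrowia lipolytica* strain W29, a wild-type yeast, was grown in bioreactors held at pH 2.0, pH 4.0 or pH 6.0, with 3 bioreactors (replicates A, B and C) at each pH, and mRNA was profiled at hour 50. All groups shared the strain and a medium of 50 g/L glucose, 1 g/L ammonium sulfate, 1.7 g/L yeast nitrogen base and 1.5 g/L yeast extract. Of the labelled conditions only the pH differed between the groups. Values are a gene's reads relative to library size (CPM), scaled by the authors and not divided by gene length. Members were chosen by these values themselves: their mean log2(CPM + 1) at pH 4.0 lay at least 0.5 above that at pH 2.0 and at least 0.5 above that at pH 6.0, and their highest group mean was at least 10 CPM. Differences between pH 4.0 and either other pH therefore describe the members and are not evidence for the peak. They are called steps here, each as pH 4.0 minus the other pH on the log2(CPM + 1) scale, which understates the change of low genes.

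Yeasts take up many nutrients on a proton gradient across the plasma membrane, so the acidity of the medium bears on transport, on the work of the proton pump and on the proteins kept at the cell surface. In *Y. lipolytica* it also bears on which organic acids and storage lipids accumulate when nitrogen runs short and glucose remains. Responses to ambient pH in fungi are best known as switches towards alkaline or acid conditions. A transcript that is highest at an intermediate pH follows neither switch in a simple way. The locus tags are not paired with names or functions in the data or in the reference table used here, so members are described by tag, level and pattern, and no sequence is given for them.

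The libraries held 12974822 to 17701766 reads, and the scaled values of a library added up to 904216 to 910806 CPM at pH 2.0, to 1010486 to 1094635 CPM at pH 4.0 and to 1051586 to 1056851 CPM at pH 6.0. Replicate A at pH 4.0 had the highest sum, and it stood apart among the members: it was the highest of the 3 pH 4.0 libraries for 105 of 126 members (83.3%), against 35.2% of the 5536 tags with a highest group mean of at least 10 CPM. Replicate B was highest for 7 members and replicate C for 14. The rule used the mean of these 3 libraries, so these counts are a description. Without replicate A at pH 4.0 the rule was met by 65 genes, 63 of them among the 126. All 126 still had their highest mean at pH 4.0 without it. Some counts below are therefore given with and without that library. The other counts include it and may rest on it.

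Most peaks were small, and a few were steep. The step from pH 2.0 had a median of 0.71 (0.50 to 2.42) over the members and -0.02 over all 6165 genes tested, and the step from pH 6.0 had a median of 0.68 (0.50 to 5.95) over the members and 0.00 over all genes. Without replicate A at pH 4.0 the members' medians were 0.61 and 0.58. In 53 members the smaller of the steps was under 0.6, and in 17 both steps were at least 1, a doubling of CPM + 1. By limma (adjusted p under 0.05), the pH 4.0 level was above the pH 2.0 level in 123 members and in 30.8% of all genes, and above the pH 6.0 level in 122 members and in 25.8% of all genes. Every pH 4.0 library lay above every pH 2.0 and pH 6.0 library in 118 members, and in 9.13% of all genes. The same libraries chose the members, so nothing is read from these counts. A pH 4.0 mean above both others was no rarity by itself, since 1361 of the 5536 tags (24.6%) had one.

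**Figure D1:**
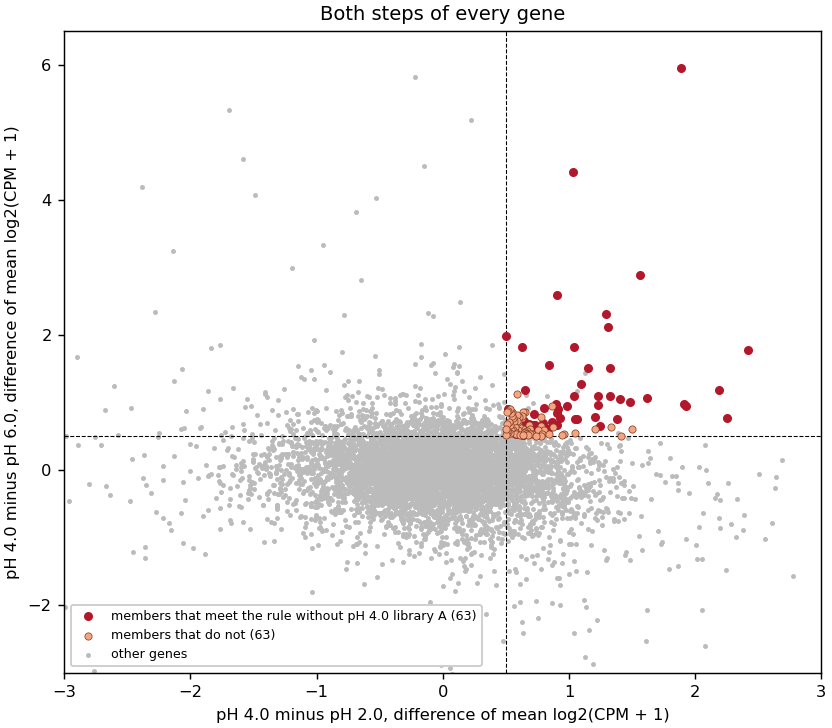
Each point is a gene, with its pH 4.0 minus pH 2.0 difference of mean log2(CPM + 1) on the x axis and its pH 4.0 minus pH 6.0 difference on the y axis; dashed lines mark 0.5, and genes beyond the axes are not drawn. The 63 members that meet the rule without pH 4.0 library A (dark red) reach up to 1.88 in their smaller step, while the 63 that do not (light) have a smaller step of at most 0.86.

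The steepest members, ranked by the smaller of their steps, were led by YALI0F13959g, which was abundant at pH 4.0, lower at pH 2.0 and nearly absent at pH 6.0. It had 87.7, 90.8 and 186 CPM at pH 2.0, 414, 490 and 375 CPM at pH 4.0, and 6.54, 7.08 and 4.31 CPM at pH 6.0. Its steps were 1.88 from pH 2.0 and 5.95 from pH 6.0, and the groups did not overlap. YALI0C19822g was the reverse in shape, with its larger step on the acid side. It had 508, 713 and 387 CPM at pH 2.0, 3907, 2297 and 2406 CPM at pH 4.0, and 829, 833 and 775 CPM at pH 6.0. Replicate A was its highest pH 4.0 library, and its steps were 2.42 and 1.78 with it and 2.18 and 1.53 without it.

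YALI0B06028g was a low-count member of the same shape as YALI0F13959g. It had 8.52, 11.5 and 4.45 CPM at pH 2.0, 27.1, 22.7 and 24.3 CPM at pH 4.0, and 2.20, 2.65 and 2.53 CPM at pH 6.0. All 3 pH 4.0 libraries lay well above the rest, but its step from pH 6.0, 2.89 with a pseudocount of 1, was 1.99 with a pseudocount of 5. YALI0D06996g came closest to a symmetric peak among the leading members. It had 21.9, 21.4 and 20.9 CPM at pH 2.0, 54.9, 44.9 and 68.5 CPM at pH 4.0, and 17.4, 21.7 and 17.2 CPM at pH 6.0, so that its outer groups lay together (steps 1.33 and 1.52).

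Among the other leading members, YALI0D07766g and YALI0B07898g were lowest at pH 6.0. YALI0D07766g averaged 57.2 ± 9.77 CPM at pH 2.0, 145 ± 31.6 CPM at pH 4.0 and 32.1 ± 4.47 CPM at pH 6.0 (SD, n = 3 each). YALI0B07898g averaged 219 ± 52.1, 529 ± 31.0 and 107 ± 16.5 CPM at pH 2.0, pH 4.0 and pH 6.0 (SD, n = 3 each). YALI0E04510g was lowest at pH 2.0 instead, with 34.6 ± 8.79 CPM there, 164 ± 50.3 CPM at pH 4.0 and 69.2 ± 8.68 CPM at pH 6.0. The last of the 8, YALI0D20262g, averaged 19.7 ± 3.80, 44.9 ± 8.88 and 15.0 ± 2.11 CPM at pH 2.0, pH 4.0 and pH 6.0. Each of these 8 members met the rule under every scaling tried and without any single library.

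**Figure D2:**
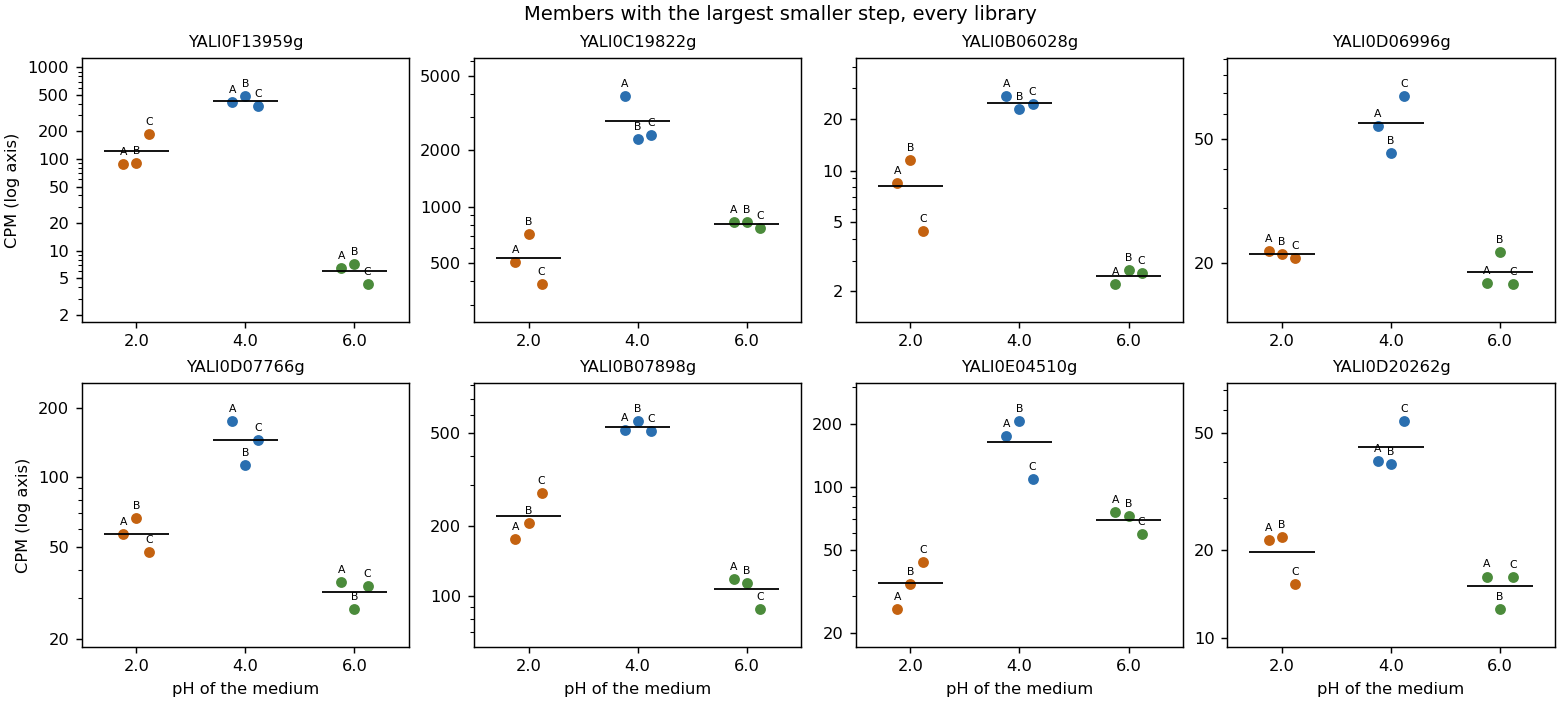
CPM (log axis, scaled separately in each panel) of the 8 members with the largest smaller step, by pH of the medium; points are libraries A, B and C and the line is the group mean. In each panel the 3 pH 4.0 points lie above all pH 2.0 and pH 6.0 points, from YALI0F13959g with 414, 490 and 375 CPM to YALI0D20262g with 40.2, 39.3 and 55.1 CPM.

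By reads, YALI0B02398g stood far above the other members. It had 1946, 2295 and 4495 CPM at pH 2.0, 11758, 12003 and 7885 CPM at pH 4.0, and 5395, 5520 and 5113 CPM at pH 6.0. Every library at pH 4.0 lay above all others, and at pH 2.0 replicate C lay well above A and B. This 1 gene took up 0.780% to 1.16% of the scaled values of a pH 4.0 library, while the pH 2.0 libraries gave it 0.215% to 0.497% and the pH 6.0 libraries 0.486% to 0.522%. Together the 126 members made up 4.84% to 5.51% of a pH 2.0 library, 7.37% to 9.04% of a pH 4.0 library and 4.63% to 4.94% of a pH 6.0 library. Without YALI0B02398g those ranges were 4.63% to 5.26%, 6.59% to 7.96% and 4.14% to 4.43%.

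Next by reads came members with much flatter peaks. YALI0C16621g had 1292, 2910 and 1539 CPM at pH 2.0, 3601, 3439 and 3080 CPM at pH 4.0, and 1721, 1820 and 2077 CPM at pH 6.0, with replicate B at pH 2.0 close to the pH 4.0 values. YALI0E25025g averaged 1919 ± 143, 3301 ± 476 and 2301 ± 51.7 CPM at pH 2.0, pH 4.0 and pH 6.0 (SD, n = 3 each). YALI0E34826g averaged 1980 ± 155, 2935 ± 388 and 1756 ± 68.5 CPM in the same order of pH. In both, the spread at pH 4.0 was the widest of the groups.

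The remaining members of that top set kept the pattern. YALI0A20746g averaged 1831 ± 26.7, 2632 ± 431 and 1442 ± 52.1 CPM at pH 2.0, pH 4.0 and pH 6.0. YALI0E23584g averaged 1546 ± 92.1, 2623 ± 326 and 1735 ± 13.2 CPM, and YALI0F05522g 1755 ± 106, 2539 ± 311 and 1541 ± 69.7 CPM. In these 5 flatter members, from YALI0E25025g to YALI0F05522g, replicate A was the highest and replicate C the lowest pH 4.0 library, and none of the 5 met the rule once replicate A was left out. YALI0B02398g, YALI0C19822g and YALI0C16621g did meet it.

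Steep peaks lay mostly among the members with few reads. Split by mean CPM over all 9 libraries, 50 members lay under 100 CPM, 40 between 100 and 500 CPM and 36 at 500 CPM or over. These were 1.42%, 2.53% and 8.57% of the comparison tags in the same bands. CPM are not divided by gene length, so the bands rank genes by reads and not by transcript number. Both steps reached 1 in 12 members of the lowest band, 4 of the middle band and 1 of the highest.

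Replicates A, B and C at pH 4.0 fell in that descending order in 14 members (28%) of the lowest band, 21 (52.5%) of the middle band and 29 (80.6%) of the highest. Among all comparison tags of the bands the shares were 14.3%, 24.4% and 41.2%. The descending order was common in high-count genes of any kind, and more common still among the members. The rule chose the members on the mean of these same libraries, so their order and spread at pH 4.0 are a description. Letters only name libraries, so the order carries no sequence. Within pH 4.0 the members' SD of log2 values had a median of 0.22, against 0.13 for all comparison tags. Within pH 2.0 the medians were 0.11 and 0.10, and within pH 6.0 they were 0.099 and 0.086.

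**Figure D3:**
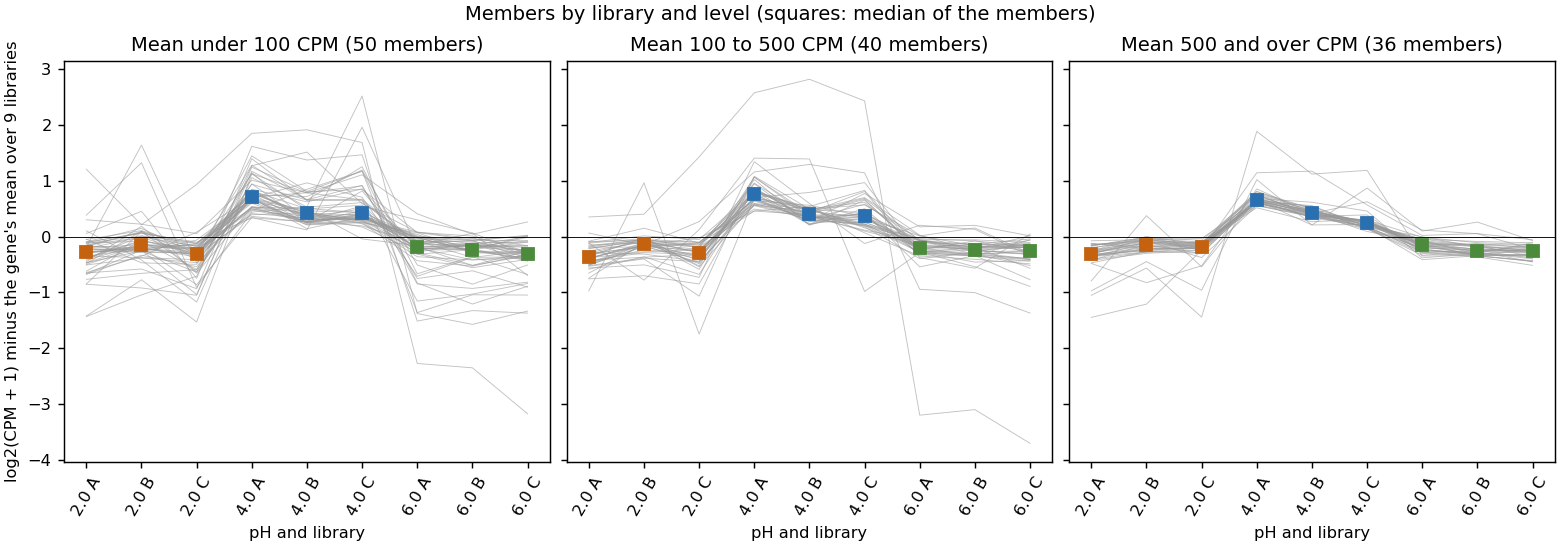
Each grey line is a member, drawn as log2(CPM + 1) in each library minus that gene's mean over the 9 libraries; squares are medians over the 50, 40 and 36 members of each band of mean CPM, coloured by pH. All 3 pH 4.0 squares lie above 0 and all others below it in every band, and at 500 CPM and over the pH 4.0 squares descend from library A to library C.

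The number of members depended on the scaling as well as on that library, and most in the highest band. When every library was scaled to the same total, 63 of the 126 met the rule. Under quantile normalization 77 did, and with median-ratio size factors 125 did. In the band of 500 CPM and over, 12 of 36 members met it with equal totals, 7 under quantile normalization and 14 without replicate A at pH 4.0. In the band under 100 CPM the counts were 28, 45 and 30 of 50. Under all 3 other scalings and without any single library, 40 members met the rule, with 23.6 to 10549 mean CPM at pH 4.0. These 40 were 21, 15 and 4 members of the bands from low to high.

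**Figure D4:**
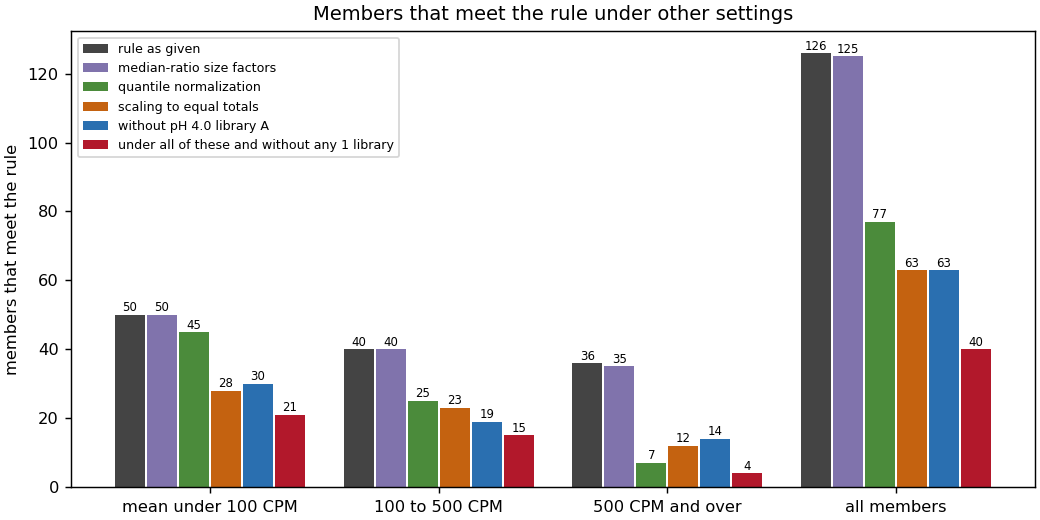
Bars give the number of the 126 members that still meet the rule under each setting, by band of mean CPM and in all; the last bar of a group counts those that meet it in every setting, including the omission of any 1 library. Of all members 125 meet it with median-ratio size factors, 63 with equal totals, 63 without pH 4.0 library A and 40 everywhere.

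Libraries that took no part in a choice give a view of the peak that the choice did not fix. When the rule was applied to replicates B and C of each pH, it chose 68 genes, 64 of them members. In the left-out replicate A, 66 of those 68 (97.1%) had the pH 4.0 library above the pH 2.0 and pH 6.0 libraries, against 26.8% of all comparison tags. Both left-out steps were at least 0.5 in 60 of them (88.2%), against 5.66%. With replicate B left out, 176 genes were chosen, and 161 (91.5%) had the left-out pH 4.0 library on top, against 23.4%. Only 58 (33.0%) had both left-out steps at 0.5 or more, against 1.28%. With replicate C left out, 176 genes were again chosen; 170 (96.6%) had that library on top, against 23.5%, and 54 (30.7%) had both steps at 0.5 or more, against 1.8%.

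The left-out libraries thus kept the direction in 91.5% to 97.1% of the chosen genes, while the size differed with the letter left out. The median left-out steps from pH 2.0 were 1.07 for A, 0.47 for B and 0.49 for C, and those from pH 6.0 were 0.93, 0.58 and 0.49. In the libraries used for choosing, the medians were 0.72 to 0.78 from pH 2.0 and 0.68 to 0.71 from pH 6.0. With 1 library per pH left out there is no replicate spread, so these shares carry no test. They and the left-out steps are given on the deposited scaling only, in which the pH 2.0 libraries have the lowest sums.

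**Figure D5:**
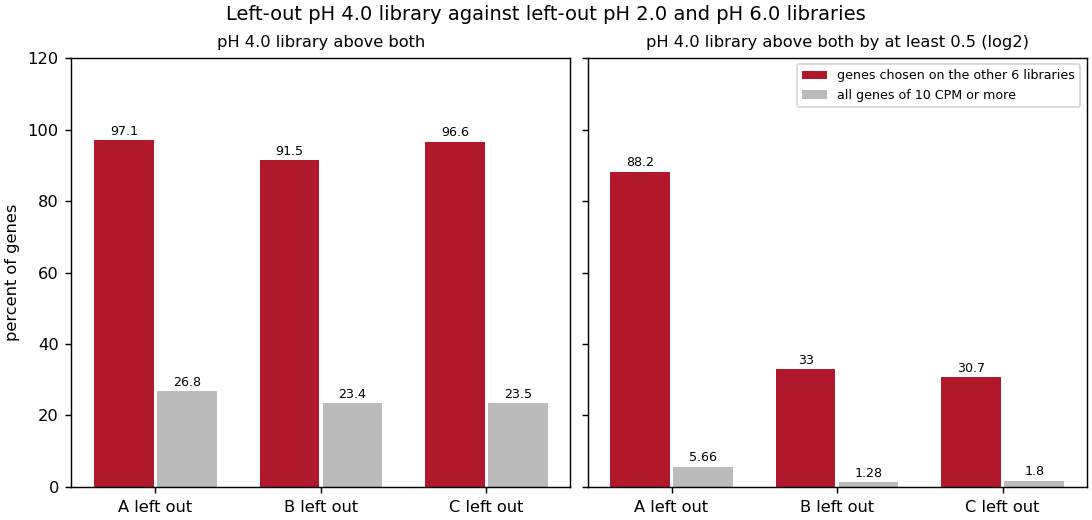
Bars give the percent of genes whose left-out pH 4.0 library lay above the left-out pH 2.0 and pH 6.0 libraries (left panel) or above both by at least 0.5 on the log2(CPM + 1) scale (right panel); red is genes chosen on the other 6 libraries and grey is all genes of 10 CPM or more. The red bars are 97.1%, 91.5% and 96.6% on the left, and 88.2%, 33.0% and 30.7% on the right.

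At pH 6.0 many members lay near their pH 2.0 level. The pH 6.0 minus pH 2.0 difference, which is set by the same steps and is a description, lay within 0.25 of 0 in 83 members (65.9%), against 26.8% of all genes, with a median of 0.02 over the members and -0.04 over all genes. With equal totals 60 members (47.6%) lay in that range, against 25.1% of all genes, and the members' median was -0.19. Under quantile normalization 55 members (43.7%) did, against 29.4% of all genes, with a members' median of -0.16. By limma, the pH 6.0 level was above the pH 2.0 level in 19 members and in 35.1% of all genes, and below it in 17 members and in 37.9% of all genes. The split depended on the scaling, with 9 higher and 51 lower at equal totals, against 1522 and 3005 of all 6165 genes. Under quantile normalization 18 members were higher and 44 lower, against 2110 and 2201 of all genes. Scaling to equal totals put the median over all genes at -0.25 for pH 6.0 minus pH 2.0, and at -0.22 for pH 4.0 minus pH 2.0.

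Some of the other members had tilted peaks of either kind. At pH 6.0, on the deposited scaling, 13 members lay at least 0.5 above their pH 2.0 level and 12 at least 0.5 below it. The shares of all genes past these limits and the counts under other scalings are not given here, so nothing is read from these counts. YALI0C12100g was tilted most towards pH 6.0, with 16.8, 26.9 and 15.5 CPM at pH 2.0, 103, 81.4 and 102 CPM at pH 4.0, and 62.5, 48.2 and 56.3 CPM at pH 6.0. Its pH 6.0 minus pH 2.0 difference was 1.48 (SE 0.19), followed by YALI0E04510g with 1.00 (SE 0.23) and YALI0B02398g with 0.97 (SE 0.27). The tilt was far larger at the other end. After YALI0F13959g (-4.07, SE 0.26), YALI0C14938g had 51.5, 25.3 and 42.4 CPM at pH 2.0, 80.9, 84.7 and 72.1 CPM at pH 4.0, and 3.69, 3.44 and 1.51 CPM at pH 6.0. Its difference was -3.39 (SE 0.27). The next, YALI0F16577g with -1.70 (SE 0.59), had scattered values.

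A few peaks rested on uneven libraries. YALI0F16577g had 9.07, 18.3 and 3.09 CPM at pH 2.0, 9.46, 10.2 and 43.3 CPM at pH 4.0, and 1.96, 1.59 and 2.05 CPM at pH 6.0, so that of the pH 4.0 libraries only C lay above all 3 at pH 2.0. It did not meet the rule without replicate C of either pH 2.0 or pH 4.0. YALI0C08547g had 101, 63.4 and 120 CPM at pH 2.0, 293, 290 and 54.9 CPM at pH 4.0, and 89.8, 96.1 and 73.7 CPM at pH 6.0. There replicate C at pH 4.0 lay under all 6 libraries of the other pH values, and the rule was not met without A or without B at pH 4.0. These were the members with the widest range at pH 4.0 (2.08 and 2.39 on the log2 scale). In all, 8 members had overlapping libraries. For YALI0C20295g, YALI0F16577g and YALI0A19558g it was the pH 2.0 library B that reached into the pH 4.0 values, and for the other 5 a single low pH 4.0 library did. The 6 members that limma did not call in both steps were those first 3, YALI0C08547g, YALI0D12408g and YALI0E17281g; apart from YALI0A19558g, YALI0F16577g and YALI0C08547g these were singled out after their values were seen.

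At the edge of the rule, members and non-members had nearly the same values. The last members inside were YALI0A19558g and YALI0D01804g, with a smaller step of 0.50 each. YALI0A19558g had 17.0, 62.9 and 13.7 CPM at pH 2.0, 27.2, 35.9 and 45.2 CPM at pH 4.0, and 6.95, 8.93 and 8.90 CPM at pH 6.0. Replicate B at pH 2.0 lay above all its pH 4.0 libraries. YALI0D01804g averaged 88.6 ± 6.86, 126 ± 18.5 and 82.1 ± 8.73 CPM at pH 2.0, pH 4.0 and pH 6.0 (SD, n = 3 each), with every pH 4.0 library above the others. The first genes outside, YALI0B16742g and YALI0B21252g, also had smaller steps that round to 0.50. YALI0B16742g averaged 59.5 ± 2.79, 100.2 ± 15.4 and 70.2 ± 4.10 CPM at pH 2.0, pH 4.0 and pH 6.0 (SD, n = 3 each), a profile like that of many members. Another 7 tags met both steps but stayed under 10 CPM.

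By the chromosome letter in the tag, members lay on all 6 chromosomes. Chromosome F held 35 (27.8% of the members and 20.8% of all YALI0 rows) and chromosome A held 9 (7.14% and 9.85%). The others held 17 on B, 19 on C, 21 on D and 25 on E, or 1.78% to 2.19% of the rows of each. When rows were ordered by tag number, 12 members (9.52%) stood next to another member, in 6 pairs, and 240 of the 6028 rows that were no members (3.98%) stood next to one. No longer run occurred, and allowing 2 rows of distance added none.

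The neighbouring pairs were alike in direction by the rule but not in level. YALI0C19822g, with 2870 ± 899 CPM at pH 4.0, stood beside YALI0C19844g with 80.1 ± 17.7 CPM, whose steps were 0.52 and 0.90 against 2.42 and 1.78. YALI0F24409g and YALI0F24431g were closer, with 479 ± 33.1 and 1086 ± 166 CPM at pH 4.0 and steps of 1.05 and 1.24 from pH 2.0. YALI0D05697g and YALI0D05731g averaged 989 ± 218 and 638 ± 110 CPM at pH 4.0, and neither met the rule without replicate A there. The other pairs were YALI0D26554g with YALI0D26576g, YALI0E23192g with YALI0E23199g, and YALI0F31548g with YALI0F31559g. Without replicate A at pH 4.0, YALI0E23199g (steps 0.44 and 0.45) and YALI0F31559g (0.49 and 0.48) did not meet the rule either. Their pairs therefore also rest on that library. In the last 2 pairs the tag numbers differ by 7 and 11, where 80.8% of successive tags differ by 22. Whether reads of overlapping or opposite genes were kept apart in counting is not given in the sources used here, so the values within a pair may not be independent. The 215 neighbours that were no members had median steps of 0.07 from pH 2.0 and 0.03 from pH 6.0, against 0.00 and 0.00 for all comparison tags.

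No locus listed for the better known pathways of this yeast was a member. All 66 loci listed for citrate, lipid and sugar metabolism, respiration, pH response and cell form were measured, and 0 met the rule. Members were 2.06% of all tags ending in g, so nothing is read from that count. Of the 66 loci, 22 had their highest mean at pH 4.0, against 24.6% of the 5536 comparison tags. The functions come from published locus-tag assignments as background and not from the data. Steps of at least 0.5 from pH 2.0 occurred in 14 of the 66 and from pH 6.0 in 2, never in the same locus. The shares of all genes with such steps are not given here. By limma 29 listed loci were higher and 13 lower at pH 4.0 than at pH 2.0, against 30.8% and 32.6% of all genes. This split turned with the scaling, to 17 higher and 20 lower at equal totals, against 1267 and 2873 of all 6165 genes. Under quantile normalization it was 18 higher and 22 lower, against 1906 and 1764 of all genes. Relative to pH 6.0, 12 were higher and 20 lower at pH 4.0, against 25.8% and 25.7% of all genes, and 12 and 19 or 13 and 18 under those scalings. Over all genes those scalings gave 1592 higher and 1488 lower or 1638 higher and 1440 lower. The median step of the 66 loci was 0.15 from pH 2.0, -0.06 at equal totals and -0.10 under quantile normalization, and -0.01 from pH 6.0; over all genes the medians were -0.02, -0.22, 0.02 and 0.00.

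The listed locus nearest the rule was YALI0E05137g, entered as a subunit of NAD-dependent isocitrate dehydrogenase, the enzyme that carries isocitrate onward in the citrate cycle. YALI0E05137g was picked among the listed loci by the size of its steps. Its limma p-values on those steps are therefore a description and no independent support. It had 401, 379 and 361 CPM at pH 2.0, 637, 563 and 547 CPM at pH 4.0, and 437, 409 and 409 CPM at pH 6.0. The pH 4.0 libraries lay above all others, with steps of 0.61 (SE 0.08, adjusted p = 7.51e-05) and 0.47 (SE 0.08, adjusted p = 5.97e-04) by limma. YALI0D06303g, entered as the other subunit, had a flatter peak, with 341 ± 20.2 CPM at pH 2.0, 430.5 ± 37.4 CPM at pH 4.0 and 355 ± 25.5 CPM at pH 6.0 (SD, n = 3 each). Its steps were 0.33 (adjusted p = 0.00573) and 0.27 (adjusted p = 0.0205) by limma. The step from pH 2.0 was 0.13 at equal totals (adjusted p = 0.180) and 0.04 under quantile normalization (adjusted p = 0.684), and the step from pH 6.0 was 0.21 without replicate A at pH 4.0 (adjusted p = 0.0667), so neither call held throughout. For YALI0E05137g both calls held there, with steps of 0.33 to 0.61 from pH 2.0 and 0.41 to 0.57 from pH 6.0. Of the 13 listed citrate and glyoxylate cycle loci, 5 were higher and 2 lower at pH 4.0 than at pH 2.0, and 5 were higher and 3 lower than at pH 6.0, with median steps of 0.09 and 0.08. Relative to pH 2.0 the split was 2 higher and 5 lower at equal totals, and 2 higher and 7 lower under quantile normalization. Over all genes 30.8% were higher and 32.6% lower than at pH 2.0, and 25.8% and 25.7% than at pH 6.0. Relative to pH 2.0, 1267 of all 6165 genes were higher and 2873 lower at equal totals, and 1906 and 1764 under quantile normalization.

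The tag before YALI0E05137g is the member YALI0E05115g, with 106, 109 and 104 CPM at pH 2.0, 230, 152 and 135 CPM at pH 4.0, and 96.6, 92.2 and 86.4 CPM at pH 6.0. It was singled out for its place after the values were seen, and it did not meet the rule without replicate A at pH 4.0 (steps 0.43 and 0.64).

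No locus listed for fatty acid synthesis or storage lipid was a member, and nothing is read from that in so few loci. Among 10 loci listed for fatty acid synthesis, 4 were higher and 0 lower at pH 4.0 than at pH 2.0, and 1 was higher and 3 lower than at pH 6.0, with median steps of 0.20 and -0.05 (-0.01 from pH 2.0 at equal totals and -0.12 under quantile normalization). For fatty acid synthesis the counts are given on the deposited scaling only, and the median step from pH 2.0 turned with the scaling. Among 9 loci of triacylglycerol and sterol ester synthesis, 3 were higher and 2 lower than at pH 2.0, and 0 higher and 3 lower than at pH 6.0. At equal totals they were 2 higher and 3 lower relative to pH 2.0, and under quantile normalization 2 higher and 4 lower. Over all genes 30.8% were higher and 32.6% lower than at pH 2.0, and 25.8% and 25.7% than at pH 6.0. Relative to pH 2.0, 1267 of all 6165 genes were higher and 2873 lower at equal totals, and 1906 and 1764 under quantile normalization. The locus entered as phosphoenolpyruvate carboxykinase, the entry enzyme of sugar synthesis from organic acids, had a smaller step of 0.28, close to the 0.27 of YALI0D06303g. This locus too was picked by its steps, so its p-values are a description. YALI0C16995g had 594, 641 and 704 CPM at pH 2.0, 1658, 991 and 1189 CPM at pH 4.0, and 1305, 949 and 883 CPM at pH 6.0. The pH 4.0 and pH 6.0 libraries overlapped (step 0.28, adjusted p = 0.230 by limma, and 0.08 without replicate A at pH 4.0), while the step from pH 2.0 was 0.95 (SE 0.19, adjusted p = 0.00118 by limma). The locus entered as a zinc finger regulator of hyphal growth, YALI0B21582g, had 39.4 ± 3.52 CPM at pH 2.0, 28.0 ± 6.45 CPM at pH 4.0 and 34.9 ± 4.02 CPM at pH 6.0 (SD, n = 3 each).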

How the data were processed

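RNA-seq of 9 libraries was analysed. Per the file headers, the deposited signal is CPM, which the authors divided by edgeR's effective library size. The submitters' processing notes name edgeR and HTSeq, TopHat2 2.0.10, bcl2fastq 1.8.4 and Trimmomatic 0.30; for their settings, the genome build, the annotation and the use of strand the entry is: not given in the sources used here. All values (100% per library, tolerance 0.01 reads) were whole multiples of 1 read's worth, and 3 reads corresponded to 0.169 to 0.234 CPM. The reference table (8689 genes) matched 0 identifiers.

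The rule was applied to log2(CPM + 1). A gene was kept if 3 or more libraries had 1 CPM or more (6165 genes, all 126 members included) and tested with limma 3.58.1 in R 4.3.3, using its trended variance prior, in 1 fit over 9 libraries, two-sided, Benjamini-Hochberg over 6165 genes, calls at an adjusted p under 0.05. The fit was tested on simulated data. Alternatives were edgeR 4.0.16 and DESeq2 1.42.0 on recovered reads, other scalings, pseudocounts, steps and minimums, a replicate block and left-out libraries. Members and lists were chosen with earlier results of these data known. Replicates differed beyond counting noise (chi-square 8.76 to 55.1 per degree of freedom); the labels describe bioreactors in triplicate, and p-values measure the spread between these libraries.

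Members named are those with the 8 largest smaller steps, the 8 with the most CPM at pH 4.0 and up to 8 in the longest runs of neighbours. Also named are 2 genes on each side of the threshold, 3 members tilted most each way and 2 of widest range at pH 4.0. Listed loci that were members would have been added. YALI0E05137g and YALI0C16995g fall outside this choice and were picked by their steps.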

Additional observations from a re-analysis of the deposited data

How the results depend on the processing

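The number of members moved with the threshold and with 1 library. It was 225 with a step of 0.4, 73 with 0.6 and 17 with 1; leaving out single libraries gave 65 (pH 4.0 replicate A) to 181 (pH 4.0 replicate C), and leaving out a letter at all pH values gave 68 (A) or 176 (B, C). Equal totals gave 65 members, and 43 with pH 4.0 replicate A left out as well, an alternative chosen after seeing the data. Pseudocounts of 0.25 and 5 gave 128 and 113, no minimum 133, a minimum of 50 CPM 105, quantile normalization 106 and median-ratio size factors 131. Calls of members against pH 2.0 were 114 to 125 and against pH 6.0 118 to 124 over the settings run. Over all genes they were 3577 to 4140 and 2639 to 3360. The rule used both contrasts, so nothing is read from the steady counts of members. For pH 6.0 against pH 2.0, 36 were called, 60 at equal totals and 62 under quantile normalization. With a library left out 24 to 46 were called. Over all genes the counts in the same order were 4498, 4527, 4311 and 4127 to 4596. The cause of these shifts was not tested. Correlations of deviations ran from -0.204 to 0.269 for libraries of the same letter and from -0.291 to 0.218 for different letters. The highest, 0.269, was that of replicate A at pH 4.0 with replicate A at pH 6.0. The ranges overlapped, and the letters were not taken to pair the libraries. The replicate block gave 123, 121 and 36 calls of members, and 3853, 3106 and 4430 over all genes. Over all genes limma called 3907, 3177 and 4498, edgeR on recovered reads 3917, 3183 and 4512, and DESeq2 3910, 3234 and 4469. Of 1014 recomputed differences of named members 967 moved by less than the replicate SD and 47 by more, with no called sign reversed. The rule had fixed the sign of the 676 steps among them in the main setting, so nothing is read from the lack of reversals.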

Other observations

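Outside the tags ending in g, 1 row met the same rule. YALI0E17603r averaged 6.96 ± 0.943 CPM at pH 2.0, 13.3 ± 3.50 CPM at pH 4.0 and 5.71 ± 1.87 CPM at pH 6.0 (SD, n = 3 each). Replicate A, with 17.3 CPM, was its highest pH 4.0 library.

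The mirror image of the rule, with pH 4.0 at least 0.5 below both other pH values and the same CPM minimum, was met by 138 tags. Replicate A was the lowest pH 4.0 library in 81 of them. The same libraries chose these tags and no share over all comparison tags is given, so nothing is read from that count.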
